A study of Mus musculus with 23 samples.

Results

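The 9 genes Pf4, Vwf, Itga2b, Cavin2, Rab27b, Treml1, Gp1bb, Gp9 and Cd9 belong to the megakaryocyte and platelet programme. They were chosen by name, with earlier results of these data known, from the 32285 genes counted in each of 11 single-cell gene-expression libraries of mouse bone marrow, and all 9 were found in every library. For each gene the fraction of cells in which it was detected is given beside the number of transcripts in the cells that had it.

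The libraries held KSL cells, which carry c-Kit and Sca1 and lack lineage markers, a sorted fraction that contains blood stem cells and early progenitors. Mice carried floxed alleles of Ezh2 or Jarid2, and every library, Control included, was labelled with Mx1-Cre, a recombinase driven by an interferon-inducible promoter that is active in blood cells and some other tissues. How and when Cre was induced, the exact alleles of the Control mice and whether a library pooled several animals are not stated in the labels. In the baseline experiment, untransplanted mice 2 months old gave 1 male library (replicate 1) and 1 female library (replicate 2) per genotype (Control, Ezh2 KO, Jarid2 KO), and the same cells were stained with 6 barcoded antibodies. In the transplant experiment, 500000 CD45.2 donor cells were mixed with 500000 CD45.1 competitor cells and given to lethally irradiated recipients, and the CD45.2 KSL cells were taken 18 weeks later, giving 1 Control, 2 Ezh2 KO and 2 Jarid2 KO libraries. With 2 libraries in a group, and 1 for the transplant Control, every p-value below rests on these libraries only. Fits over all genes also borrow spread from other genes, so a small p need not reflect the spread of 1 gene alone.

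Megakaryocytes are the large marrow cells that shed platelets. They arise from blood stem cells, some of which already express genes of this lineage, and they depend on GATA, ETS and RUNX family transcription factors. Platelets store adhesive and signalling proteins in alpha granules, bind injured vessel walls through the GPIb-IX-V receptor complex and its ligand von Willebrand factor, and bind one another through the integrin alphaIIb-beta3. Ezh2 is a catalytic subunit of Polycomb repressive complex 2 (PRC2), which methylates histone H3 at lysine 27, and Jarid2 is an accessory protein of that complex.

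The members lie at separate places of the genome, given here for 8 of the 9 on build GRCm38.p6 (mm10). Pf4 spans chr5:90772435-90773383, Itga2b chr11:102453297-102469883, Cavin2 chr1:51289126-51302960, Treml1 chr17:48359916-48367176, Gp1bb chr16:18620319-18622403 and Gp9 chr6:87776131-87779786. Cd9 (chr6:125460266-125494760) and Vwf (chr6:125552948-125686679) are the one near pair, with 58187 bases between them. Gp1bb overlaps Septin5, Cavin2 overlaps 9330175M20Rik, Rab27b overlaps Gm41770, and Cd9 overlaps Gm28809 and Gm26728. These are overlaps of whole gene spans, taken without regard to strand or exons. How reads in the shared stretches were counted was not examined, so the counts of these 4 members are uncertain to an extent that was not measured.

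Promoter sequence was available from RefSeq (GRCm38.p6) for 7 of the 9 genes and covers the 250 bases before the annotated start. Vwf and Rab27b had no entry. The 4 windows below belong to the genes whose summed counts differed between the transplant libraries labelled Jarid2 KO and Ezh2 KO, 3 in one direction (Pf4, Treml1, Gp9) and 1 in the other (Itga2b). The Gp9 window precedes a start that lies inside the gene's span. Capitals mark a match to a searched motif.
Pf4, chr5:90772185-90772434, plus strand: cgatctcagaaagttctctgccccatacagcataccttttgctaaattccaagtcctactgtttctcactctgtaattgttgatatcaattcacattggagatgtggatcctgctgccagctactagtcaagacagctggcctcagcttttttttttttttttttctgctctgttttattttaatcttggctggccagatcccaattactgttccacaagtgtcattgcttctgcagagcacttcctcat
Treml1, chr17:48359666-48359915, plus strand: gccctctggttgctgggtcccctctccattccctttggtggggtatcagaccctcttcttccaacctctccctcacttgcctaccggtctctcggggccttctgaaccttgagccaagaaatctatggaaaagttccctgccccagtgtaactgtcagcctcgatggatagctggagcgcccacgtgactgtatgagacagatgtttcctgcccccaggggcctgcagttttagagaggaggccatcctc
Gp9, chr6:87777820-87778069, plus strand: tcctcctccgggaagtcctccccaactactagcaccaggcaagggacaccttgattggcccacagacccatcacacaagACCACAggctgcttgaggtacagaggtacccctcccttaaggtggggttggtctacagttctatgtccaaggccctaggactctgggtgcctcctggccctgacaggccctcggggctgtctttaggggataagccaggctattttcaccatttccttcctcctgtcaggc
Itga2b, chr11:102469884-102470133, minus strand: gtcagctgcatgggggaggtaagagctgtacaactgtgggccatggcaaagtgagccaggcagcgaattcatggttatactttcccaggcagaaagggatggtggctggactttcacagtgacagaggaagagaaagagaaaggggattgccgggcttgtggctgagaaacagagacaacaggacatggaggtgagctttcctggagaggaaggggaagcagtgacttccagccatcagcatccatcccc

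Both strands were searched for the GATA words AGATAA with TGATAA and AGATAG with TGATAG, for the ETS words CAGGAAG or else CCGGAAG, and for the RUNX word TGTGGT. In the promoters available, a GATA word was found in 1 of the 7 windows, that of Gp1bb, as CTATCA starting 22 bases before the start site. A RUNX word was found in 1 of 7, that of Gp9, as ACCACA starting 171 bases before it, and an ETS word in 0 of 7. Over all 32851 promoter windows of the table, 26.5% held a GATA word, 17.0% an ETS word and 14.0% a RUNX word. The match in Gp9 is the only one in the 4 printed windows, and these letters are absent from the other 3.

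After filtering, the baseline libraries held 6723 to 9208 cells with a median of 10764 to 12661 UMIs (unique transcript counts) per cell, and the transplant libraries 4354 to 6149 cells with a median of 11786 to 17611. Barcodes with over 10% mitochondrial counts made up 2.82% to 5.82% of the baseline and 25.7% to 43.4% of the transplant libraries. The 14 stem cell markers, of which none was at 0 in any library, summed to 1739 to 2433 CPM (counts per 1000000 UMIs) at baseline and to 299 to 344 CPM after transplantation. Counting software differed with the experiment, so levels of the 2 experiments are given side by side and were not tested against each other. Pairs of libraries shared 4 to 31 cell barcodes, at most 0.392% of the smaller library. Ezh2 was at 209 and 193 CPM in the baseline Control and at 163 and 148 CPM in the baseline Ezh2 KO libraries, a difference of -0.33 (log2) that missed the threshold in edgeR's quasi-likelihood test (FDR, the Benjamini-Hochberg adjusted p, 0.060). After transplantation Ezh2 was at 185 CPM in the Control against 38.8 and 47.0 in Ezh2 KO (log2 -2.19, edgeR FDR 0.00083). Jarid2 counts went against their label. They were 159 and 150 CPM in the baseline Control and 215 and 205 CPM in Jarid2 KO, and 38.5 CPM in the transplant Control and 57.3 and 57.1 in Jarid2 KO. The assay counts 3' ends, and the sources used here do not place the deleted part, so these counts check nothing about the deletion. The groups are therefore called "Jarid2 KO-labelled" below, and every direction drawn from them carries that limit. The baseline Ezh2 counts, whose difference missed the threshold, do not settle the extent of the Ezh2 deletion there either. Directions drawn from the baseline Ezh2 KO libraries carry that limit too.

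Pf4 encodes platelet factor 4, a chemokine stored in alpha granules. It was at 65.2 and 152 CPM in the baseline Control libraries (replicates 1 and 2), 67.5 and 50.9 CPM in Ezh2 KO, then 66.4 and 99.2 CPM in Jarid2 KO-labelled. The female Control library stood above the 5 others, and the male Control library lay within the range of the knockout-labelled ones. Vwf, the gene for von Willebrand factor, was at 7.55 and 11.8 CPM in Control, 3.80 and 5.85 in Ezh2 KO, then 5.76 and 8.78 in Jarid2 KO-labelled. Both Ezh2 KO libraries lay below both Control libraries. With 2 libraries against 2, the smallest possible exact permutation p is 0.333. How many of all genes separate in this way was not computed, so groups without overlap, here and below, set no member apart.

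Among the receptors, Itga2b encodes the integrin alphaIIb chain (CD41). It was at 19.6 and 28.1 CPM in the baseline Control, 15.3 and 14.5 in Ezh2 KO, then 15.1 and 19.0 in Jarid2 KO-labelled, so neither knockout-labelled group overlapped the Control. Gp9 and Gp1bb encode subunits of the von Willebrand factor receptor complex. Gp9 was at 9.01 and 12.2 CPM in Control, then 7.92 and 7.31 with Ezh2 KO, then 7.54 and 8.98 with Jarid2 KO-labelled. Gp1bb was the rarest of the 9, with 79 to 228 UMIs in each baseline library and 0.904 to 2.32 CPM. Treml1, a receptor of platelet alpha granules, was at 2.31 to 5.59 CPM, and its highest value, like that of Gp1bb, was in the female Control library.

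The remaining 3 members act at membranes. Cavin2 encodes a caveolar coat protein. It was at 13.1 and 18.1 CPM in the baseline Control, then 6.57 and 8.05 with Ezh2 KO, then 10.3 and 11.8 with Jarid2 KO-labelled. Rab27b encodes a small GTPase used in granule secretion and was at 20.8 and 29.4 CPM in Control, 14.9 and 18.3 in Ezh2 KO, then 24.7 and 27.8 in Jarid2 KO-labelled. Cd9, a tetraspanin present on platelets and on many other cells, was at 80.8 and 83.3 CPM in Control, 53.9 and 63.99 in Ezh2 KO, then 63.5 and 67.4 in Jarid2 KO-labelled. For Rab27b and Cd9 both Ezh2 KO libraries lay below both Control libraries, with the same limit.

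After transplantation, Pf4 was at 25.9 CPM in the Control library, 38.1 and 27.5 CPM in Ezh2 KO, then 10.1 and 3.13 CPM in Jarid2 KO-labelled. Both Jarid2 KO-labelled libraries lay below the 3 others, and the lower of the pair was replicate 2. Itga2b was at 25.5 CPM in the Control, 16.3 and 15.7 in Ezh2 KO, then 20.9 and 21.4 in Jarid2 KO-labelled. Gp9 was at 6.65 CPM, 7.69 and 9.30 CPM, and 4.76 and 4.29 CPM in the same order. Treml1 was at 0.828 CPM, 1.13 and 1.31 CPM, and 0.422 and 0.490 CPM, from 56, then 126 and 106, then 39 and 42 UMIs. Both genes were lowest in the Jarid2 KO-labelled libraries. Cd9 was at 52.8 CPM in the Control, 45.7 and 42.1 in Ezh2 KO, then 45.5 and 63.9 in Jarid2 KO-labelled, so those groups overlapped. Rab27b ranged from 2.69 to 4.39 CPM. Vwf, Cavin2 and Gp1bb rested on few counts, as did Treml1. Vwf had 51 to 118 UMIs per transplant library (0.552 to 1.09 CPM), Cavin2 had 40 to 167 (0.467 to 1.56 CPM), and Gp1bb had 7 to 70 (0.0817 to 0.868 CPM). Gp1bb had the fewest in the Jarid2 KO-labelled libraries, with 18 and 7 UMIs against 23 in the Control and 42 and 70 in Ezh2 KO.

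**Figure D1:**
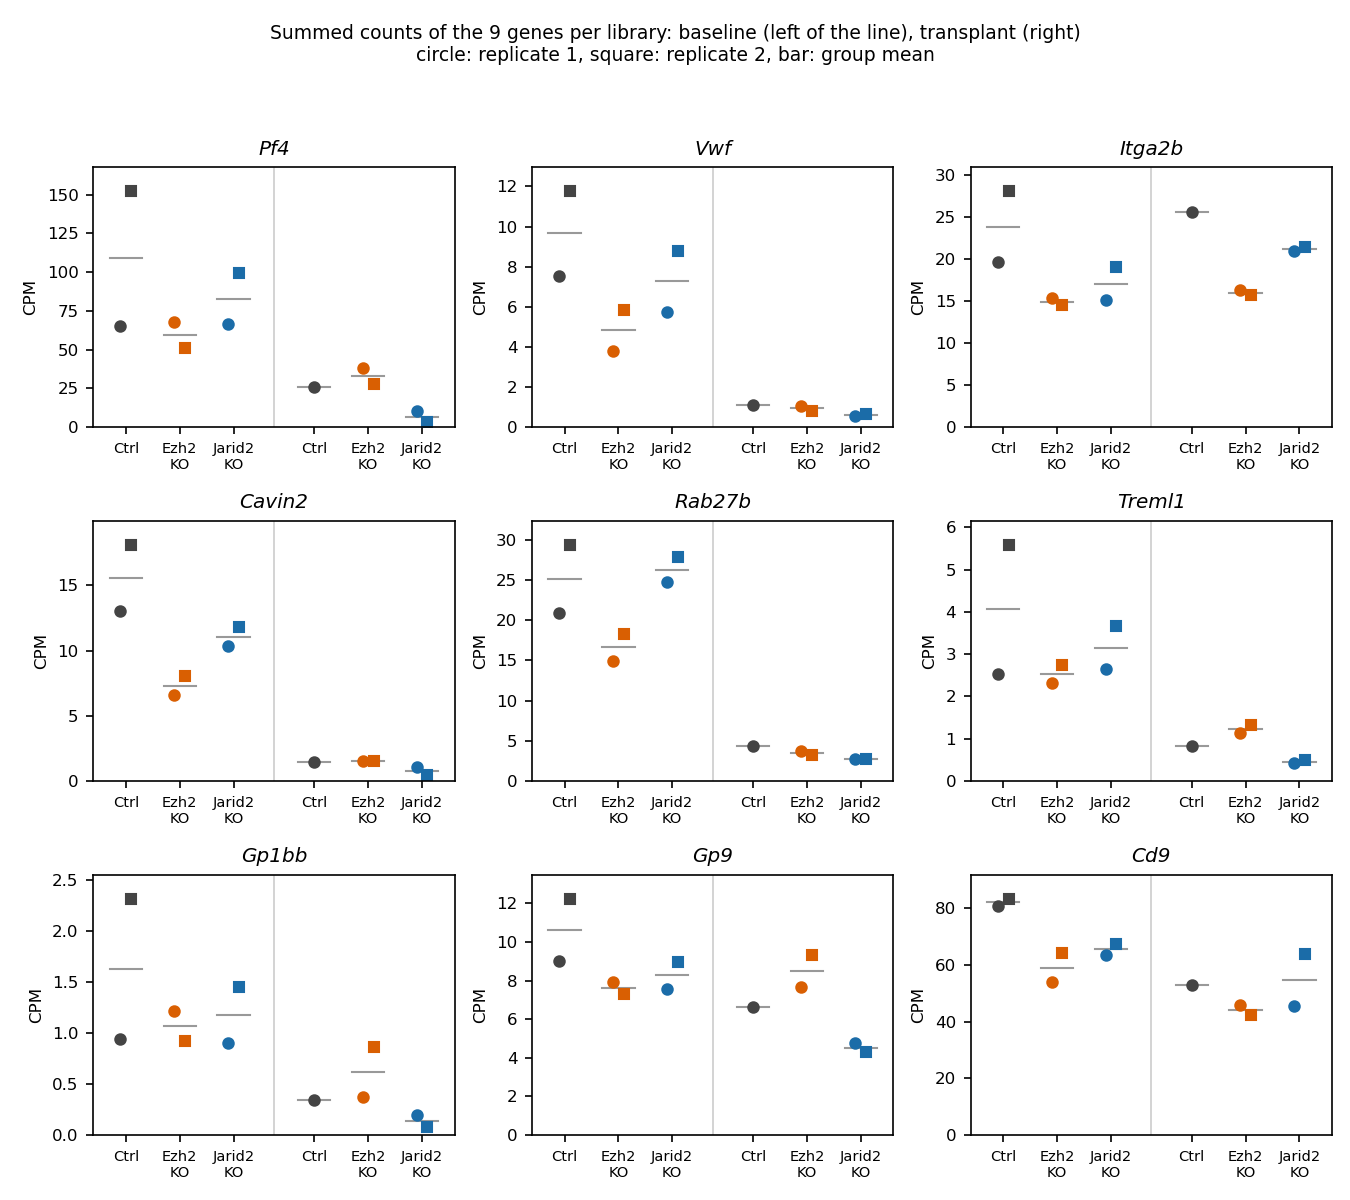
CPM of the 9 genes (vertical axes, one panel per gene) in each of the 11 libraries (horizontal axes), with circles for replicate 1, squares for replicate 2 and a bar at each group mean. Transplant Pf4 sits between 25.9 and 38.1 CPM in Control and Ezh2 KO and at 10.1 and 3.13 CPM in the Jarid2 KO-labelled libraries.

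To separate how many cells had a transcript from how many transcripts such cells had, each cell was thinned at random to 5000 UMIs, and shallower cells were left out (344 to 721 per baseline library and 273 to 708 per transplant library). A positive cell had at least 1 UMI of the gene after thinning. Most members were spread thinly over cells. In the baseline libraries Cd9 was positive in 19.0% to 28.4% of cells, Itga2b in 5.04% to 9.09%, Pf4 in 5.60% to 8.81%, Rab27b in 5.36% to 9.17%, Gp9 in 3.61% to 5.59% and Cavin2 in 2.11% to 4.81%. Vwf was positive in 1.46% to 4.14%, Treml1 in 0.790% to 2.21% and Gp1bb in 0.250% to 0.738%. Without thinning the same shares were higher, for example 37.2% to 48.1% for Cd9, 9.20% to 14.3% for Pf4 and 3.16% to 7.62% for Vwf. In the single transplant Control library, Cd9 was positive in 23.7% of cells (exact binomial 95% interval 22.3% to 25.1%), Itga2b in 11.3% (10.3% to 12.4%), Pf4 in 3.88% (3.29% to 4.55%) and Gp9 in 3.37% (2.82% to 4.00%). Rab27b was positive there in 2.20% (1.75% to 2.72%), and the other 4 members in under 1% of cells. These intervals cover counting error only.

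Pf4 differed from the other 8 in how its transcripts were distributed. In the baseline Control libraries a Pf4-positive cell held on average 2.49 and 6.66 UMIs of Pf4, against 3.14 and 3.36 with Ezh2 KO, then 3.02 and 4.46 with Jarid2 KO-labelled. The richest single thinned cell in each baseline library held 53 to 152. Had the same counts been spread evenly over cells, 17.2% to 39.4% of baseline cells would have been positive, against the 5.60% to 8.81% seen. For the other 8 members a positive baseline cell held on average between 1.00 and 1.58 UMIs. A positive cell cannot hold fewer than 1 UMI, so the levels of these genes lay near their floor. For Gp9 the shares seen, 3.61% to 5.59%, were close to the 3.74% to 5.86% of even spreading, and at this depth its share and level cannot be told apart. For Cd9, even spreading gave 22.5% to 33.2% of baseline cells, not far above the share seen.

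**Figure D2:**
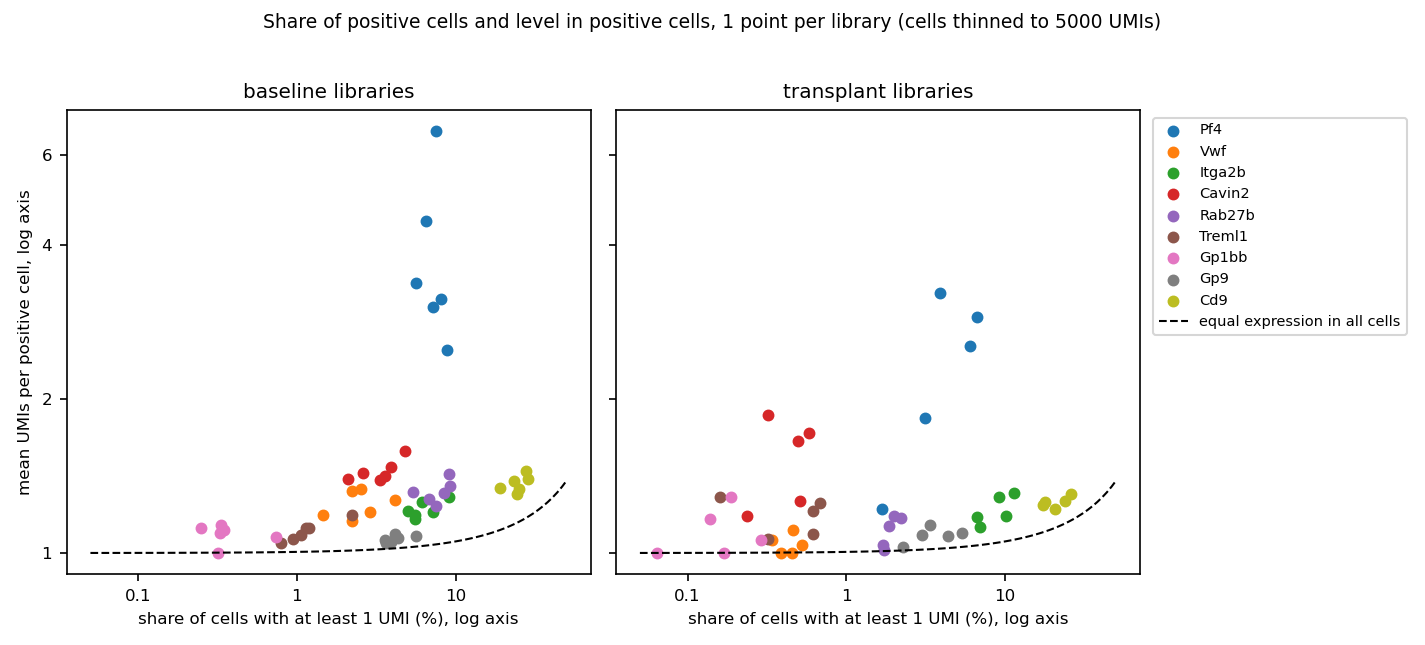
Share of cells with at least 1 UMI (percent, horizontal log axis) against mean UMIs per positive cell (vertical log axis) for the 9 genes in each library, after thinning to 5000 UMIs per cell; the dashed line is what equal expression in all cells gives. Pf4 reaches the highest level, up to 6.66 UMIs per positive cell.

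Free RNA in a droplet can place a transcript in a cell that does not express the gene, so the shares were set beside those in cells with at least 3 UMIs of 8 lymphoid genes (Dntt, Rag1, Il7r, Igll1, Vpreb1, Vpreb3, Cd79a and Ebf1). Such cells had a median depth of 12888 to 14443 UMIs at baseline, against 11048 to 13182 for all thinned cells, and were deeper in every library. After transplantation the depth was 11810 to 17961 against 12388 to 20005, and lower in every library. In baseline lymphoid cells Cavin2 was positive in at most 0.234%, Vwf in at most 0.538%, Treml1 in at most 0.148%, Gp1bb in at most 0.0742%, Pf4 in 0.641% to 1.30% and Itga2b in 0.937% to 1.47%. Rab27b was positive in 0.577% and 0.998% of Control, 1.20% and 0.681% of Ezh2 KO, then 2.38% and 2.84% of Jarid2 KO-labelled lymphoid cells. For the 6 genes before it the lowest share over all cells of a baseline library was above the highest share in lymphoid cells. Gp9 lay nearer to its background, with 2.00% to 2.76% in lymphoid cells against 3.61% to 5.59% over all cells. In the transplant libraries Gp9 was at 1.48% to 4.42% in lymphoid cells against 2.26% to 5.34% over all cells. A Gp9 share up to the lymphoid value cannot be told apart from background in these cells. Another set, cells without Gata1 and with at least 20 UMIs of the granule genes Elane, Prtn3, Ctsg and Mpo, was deeper, with a median of 20109 to 27381 UMIs in 124 to 539 cells per baseline library. There Gp9 was positive in 0.676% to 2.23% and Pf4 in 0% to 2.23%. Itga2b was positive in 3.73% to 8.06% and Cd9 in 19.9% to 29.1% of them, and for Itga2b this overlapped the 5.04% to 9.09% over all cells. Cd9 was positive in 9.47% to 13.7% of lymphoid cells over both experiments. After transplantation the shares of Vwf over all cells (0.342% to 0.529%) were also near those in lymphoid cells (0% to 0.260%), and those of Treml1 (0.161% to 0.681%) overlapped them (0% to 0.185%). The lymphoid and granule sets overlapped after transplantation: in Jarid2 KO-labelled replicate 1 they held 859 and 3953 of 4361 thinned cells. Lymphoid cells are thus named by their UMIs alone, and their use as a background is uncertain after transplantation.

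Most cells with a member had only 1 or 2 of them, 28.8% to 39.6% of all cells of a library. Cells positive for one member were nonetheless more often positive for another. For all 72 ordered pairs, in which each pair of genes counts in both orders, the median share over libraries of cells positive for the second gene was higher among cells positive for the first than among the rest. The same was not computed for pairs of other genes. Most positive cells lacked the second gene in many pairs: of Pf4-positive cells 5.32% had Vwf and 8.72% had Gp9, against 1.11% and 3.48% of the rest. Cavin2-positive cells had Pf4 in 41.5%, against 5.81% of the rest. Vwf-positive cells had Cavin2 in 25.7%, against 1.73%, and Cd9 in 50.9%, against 23.5%. At least 3 of the 9 genes were detected in 2.70% to 5.77% of baseline cells, while independent detection at the same shares would give 0.624% to 2.26%. In the transplant libraries the shares were 0.803% to 1.57% and 0.217% to 0.428%. Thinning held depth equal in these counts. Cells with at least 7 of the 9 genes numbered 8 to 34 per baseline library and at most 3 per transplant library.

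Of 6 genes listed as markers of mature platelets, 5 had few UMIs and 1 had many. Tubb1, which encodes the beta1-tubulin of platelets, had 4 to 14 UMIs in a whole baseline library and 0 to 3 in a transplant library. Gp6, the platelet collagen receptor, had 1 to 3 UMIs at baseline and none after transplantation. Ppbp, another alpha granule chemokine, had 79 to 149 UMIs at baseline and 16 to 68 after transplantation. Clec1b, a C-type lectin receptor of platelets, had 34 to 157 and 11 to 29, and Alox12, a platelet lipoxygenase, 18 to 59 and 1 to 12. Nrgn, which encodes neurogranin, had 13950 to 20122 UMIs in a baseline library and 7078 to 12797 in a transplant library.

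The antibody counts gave a second readout of the same baseline cells. Each was taken as a share of the cell's total over the 6 antibodies. High and low below thus mean shares of that total, and the 6 antibodies are not independent of one another. Cells of each library were ranked by the counts of 1 antibody, scaled to 10000 antibody counts per cell, split into 3 equal parts, and the upper part was compared with the lower part by an exact two-sided sign-flip permutation test over the 6 libraries, for which the smallest possible p is 0.03125 (0.0344 after Benjamini-Hochberg adjustment over the 54 combinations of 9 genes and 6 antibodies). For CD150 (Slamf1), a marker used to enrich blood stem cells and present on megakaryocyte progenitors, all 9 genes were positive in more cells of the upper part in 6 of 6 libraries, each at that smallest p. Of the 12196 genes with a mean share of at least 1%, 47.8% reached that p in either direction and 26.5% were higher in the upper part. The median difference was 9.42 percentage points over the 8 members among those genes (all but Gp1bb) and 0.128 over all of them. Pf4 was positive in 14.1% ± 2.56 of CD150-high cells and 2.12% ± 0.511 of CD150-low cells (SD, n = 6 libraries, exact permutation p = 0.03125). Cavin2 was positive in 10.1% against 0.0272%, Rab27b in 16.3% against 2.42%, Vwf in 6.19% against 0.464% and Gp1bb in 1.14% against no cell. Gp9 showed the smallest ratio between the parts, with 7.06% against 2.58%. Pf4-positive cells also held more Pf4 in the upper part, 5.17 ± 2.12 UMIs against 1.23 ± 0.160 (SD, n = 6).

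CD48 and CD135 (Flt3), which mark more committed and lymphoid-biased progenitors, ran the other way for all 9 genes in 6 of 6 libraries, where 36.9% (CD48) and 19.6% (CD135) of all genes were lower in the upper part in 6 of 6. Pf4 was positive in 2.44% of CD48-high and 13.0% of CD48-low cells, and Cavin2 in 0.611% against 7.87%. The few Pf4-positive cells among the CD48-high held more Pf4 each, 5.34 UMIs against 2.48. Itga2b was positive in 1.96% of CD135-high and 10.7% of CD135-low cells. For CD117 (c-Kit) 8 of 9 genes were higher in the upper part (34.5% of all genes), and Gp1bb was not called (adjusted exact permutation p = 0.0662). For CD201 (Procr) 8 of 9 were higher (35.9% of all genes), and Itga2b was not called (6.25% against 4.78%, adjusted exact permutation p = 0.159).

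Sca1 separated the members. Of Sca1-high cells 10.8% were Pf4-positive and of Sca1-low cells 3.82%, yet a positive cell held 1.47 UMIs in the upper and 8.33 in the lower part. Gp1bb was positive in fewer Sca1-high cells, 0.129% against 0.405%, in 6 of 6 libraries. Vwf, Cavin2, Rab27b and Cd9 were positive in more Sca1-high cells, and with Pf4 these are 5 of 9 members higher and 1 lower, against 37.7% and 26.7% of all genes. Itga2b, Treml1 and Gp9 were not called (adjusted exact permutation p = 0.0974, 0.406 and 0.0662). The sort on c-Kit and Sca1 set the range of both proteins beforehand. In all, 49 of the 54 combinations passed. Among genes with a mean share of at least 1%, 44 of 48 combinations of a member with an antibody reached the smallest p, against 54.8% of those of all genes, so passing alone sets no gene apart.

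Cells were clustered without the members and without other megakaryocyte genes, and a cluster took a name only from marker genes. Because these are the same cells, the values by class are given without a test. At baseline 1 cluster, of 619 cells over the 6 libraries, was named megakaryocyte-like, with all 11 detected naming markers higher than in other cells. Its leading genes were Pf4, Pde10a, Treml1, Cavin2 and Gp1bb. It made up 1.06% and 2.88% of cells in the Control libraries, 0.813% and 1.11% in Ezh2 KO, then 0.852% and 1.23% in Jarid2 KO-labelled. Pf4 was positive in 55.6% ± 7.91 of its cells (SD, n = 6 libraries) with 13.9 ± 2.27 UMIs per positive cell, and Cd9 in 72.1% ± 2.88. Itga2b was positive in 51.1%, Cavin2 in 49.2%, Rab27b in 46.3%, Vwf in 26.4%, Gp9 in 22.4%, Treml1 in 17.5% and Gp1bb in 11.3% of them. This small class held 40.6% of all Pf4 UMIs on average, 36.5% of Gp1bb and 27.7% of Treml1.

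The members fell into different places outside that class. Stem-like cells, 10207 at baseline, held 38.6% of the Vwf UMIs, 34.8% of Cavin2 and 28.3% of Rab27b, but 8.56% of Pf4. There 13.1% of cells were Pf4-positive, at 1.40 UMIs per positive cell. Cycling-like cells held 41.6% of the Pf4 and 48.4% of the Gp1bb UMIs, with Pf4 positive in 7.21% of them at 8.53 UMIs per positive cell. Dendritic-like cells were a further place for 2 members, with Cd9 positive in 66.7% and Vwf in 13.5% of them, while Pf4, Cavin2, Rab27b and Gp9 were found in none of the 174. In lymphoid-like cells Gp9 was positive in 3.75% and Cavin2 in 0.0194%.

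After transplantation no cluster met the markers for a megakaryocyte-like name. Pf4 was positive in 8.05% of stem-like cells, 6.44% of cluster 2 cells and 5.98% of cluster 1 cells, the last led by Plxnc1, Apoe, Selp, Ltc4s and Slc22a3. Itga2b was most often positive in mast-like cells (21.7%), then in cluster 2 (14.3%) and cluster 1 (11.9%). Cd9 was again positive in 62.1% of dendritic-like cells, and Vwf in 7.23% of them.

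**Figure D3:**
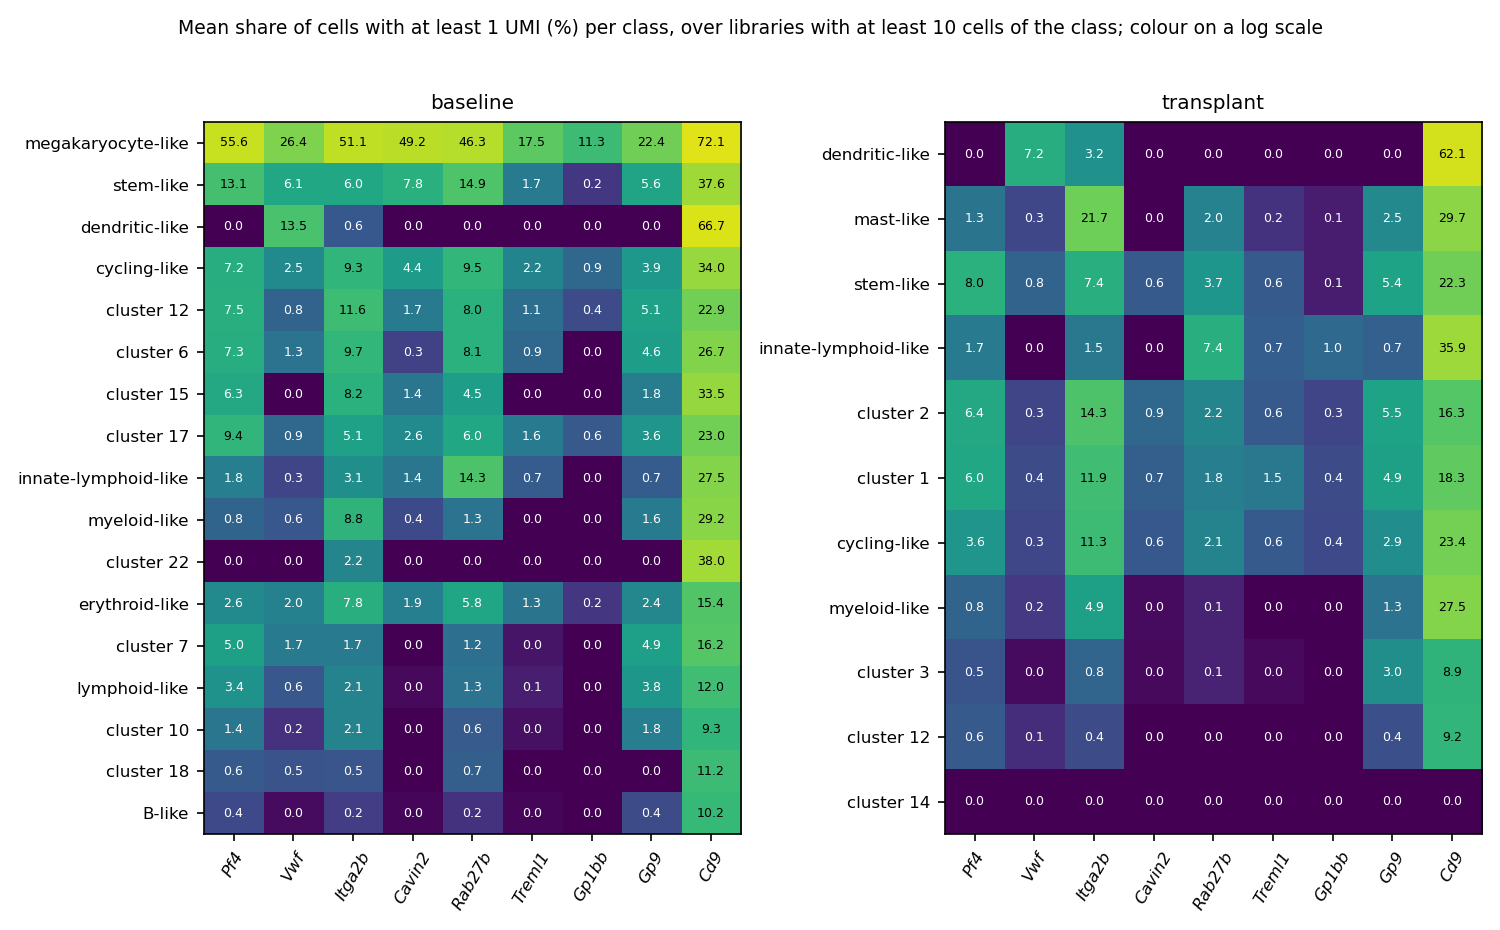
Heatmap of the mean share of cells (percent, colour scale) positive for each of the 9 genes (columns) in each cell class (rows) at baseline and after transplantation. The baseline megakaryocyte-like class reaches 55.6% for Pf4 and 72.1% for Cd9.

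At baseline, 4 of the 9 members had lower summed counts in Ezh2 KO than in Control libraries and none had higher counts. Vwf changed by -0.96 ± 0.08 (log2 ± SE, edgeR FDR 0.020), Cavin2 by -1.04 ± 0.09 (FDR 0.023), Rab27b by -0.54 ± 0.09 (FDR 0.047) and Cd9 by -0.44 ± 0.05 (FDR 0.031), in a fit over all 6 libraries with a term for sex. Of 18177 genes tested, 3.47% were called and 0.655% were called lower. All 9 estimates were negative, with a median of -0.56 against -0.0043 over all genes. The 5 not called were Itga2b (-0.61, FDR 0.099), Pf4 (-0.71 ± 0.38, FDR 0.33), Treml1 (-0.56, FDR 0.24), Gp1bb (-0.44, FDR 0.57) and Gp9 (-0.42, FDR 0.18). DESeq2 called Itga2b as well (adjusted p 0.0058), 5 members in all, with 7.50% of genes called. With 2 libraries a group, the change in Pf4 was not distinguishable from the spread left after the genotype and sex terms. Its rise from replicate 1 to replicate 2 in Control (65.2 to 152 CPM) was not shared by Ezh2 KO (67.5 to 50.9 CPM).

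The share of positive cells moved with the counts. In Control, Ezh2 KO and Jarid2 KO-labelled libraries in turn, Vwf was positive in 2.87% and 4.14%, 1.46% and 2.23%, and 2.22% and 2.52% of cells. Cavin2 was positive in 3.93% and 4.81%, 2.11% and 2.62%, and 3.31% and 3.60%. The Ezh2 KO libraries did not overlap the Control for either gene. They lay lowest of the 3 groups for Cavin2, and for Vwf they overlapped the Jarid2 KO-labelled libraries. On the log2 odds of a cell being positive, tested with limma over 12194 genes of which 8.53% were called and 4.54% lower, 4 of the 8 members tested were lower in Ezh2 KO. These were Vwf (-0.96 ± 0.15, FDR 0.016), Cavin2 (-0.92 ± 0.11, FDR 0.0094), Itga2b (-0.66 ± 0.09, FDR 0.013) and Rab27b (-0.49 ± 0.09, FDR 0.023). Cd9 missed the threshold (-0.48, FDR 0.067). In the level per positive cell, 0 of 8 members passed limma's test, in which 0.00730% of 13700 genes were called. With all but Pf4 near the floor of 1 UMI, this test could show little of a fall in level. Of the 8, Cavin2 (-0.11) and Cd9 (-0.09) had unadjusted limma p-values of 0.013 and 0.031, where 1297 of 13700 genes were under 0.05.

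Lymphoid cells moved with this comparison. Cells with at least 3 lymphoid UMIs made up 25.5% and 17.8% of the baseline Control libraries, 49.3% and 34.6% of Ezh2 KO, and 21.3% and 18.7% of Jarid2 KO-labelled. In an alternative chosen after these shares were seen, such cells were left out. No member was then called in Ezh2 KO against Control by edgeR (0.150% of genes called), with Vwf at -0.63 (FDR 0.088), Cavin2 at -0.64 (FDR 0.10), Rab27b at -0.21 (FDR 0.41) and Cd9 at -0.22 (FDR 0.21). Without the lymphoid cells, Cavin2 was at 17.9 and 22.3 CPM in Control and 12.6 and 12.7 in Ezh2 KO. Vwf was at 10.4 and 14.3 against 6.73 and 8.97 CPM, Rab27b at 28.0 and 35.7 against 26.5 and 27.6, and Cd9 at 101 and 96.8 against 82.5 and 84.8. Without the sex term none of the 4 calls was kept (edgeR FDR 0.11 to 0.27). Leaving out Control replicate 2 ended the calls of Vwf (-0.93, FDR 0.058), Rab27b (-0.39, FDR 0.11) and Cd9 (-0.49, FDR 0.057), and leaving out Ezh2 KO replicate 1 ended those of Cavin2 (-1.08, FDR 0.060), Rab27b (-0.58, FDR 0.12) and Cd9 (-0.37, FDR 0.067). The Cd9 call was also lost without Control replicate 1 (FDR 0.069), and the Rab27b call without Ezh2 KO replicate 2 (FDR 0.10) or Jarid2 KO-labelled replicate 1 (FDR 0.053). Of the 4 calls in the share, 0 were left without Control replicate 2, and 2 members were called without Control replicate 1 or without Ezh2 KO replicate 1.

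In Jarid2 KO-labelled against Control at baseline, edgeR called 0 of 9 members (0.0330% of genes called). Of these, 4 had an unadjusted p under 0.05 (2095 of 18177 genes): Cavin2 (-0.46), Cd9 (-0.31), Vwf (-0.39) and Itga2b (-0.46). DESeq2 called 2 of them lower, Cavin2 (adjusted p 0.048) and Cd9 (0.0051), with 1.38% of genes called. Limma called 0 of 8 members in the share (0.205% of genes), with 5 under an unadjusted p of 0.05 (1737 of 12194 genes). In the level it called 0 of 8 (0% of genes), with 2 under that p (1006 of 13700 genes). Rab27b was the one member with a positive estimate, 0.10.

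Between the 2 knockout labels at baseline, 3 members were higher in Jarid2 KO-labelled than in Ezh2 KO libraries. Rab27b differed by 0.64 ± 0.09 (log2 ± SE, edgeR FDR 0.030), Cavin2 by 0.58 ± 0.09 (FDR 0.038) and Vwf by 0.57 ± 0.08 (FDR 0.030), where 5.91% of genes were called and 1.49% were called higher. In the share of positive cells Rab27b (0.59, limma FDR 0.013) and Cavin2 (0.57, FDR 0.026) passed, with 9.20% of genes called and 3.69% called higher. In the level, with the same limit, 0 of 8 members passed limma (0.0292% of genes called), and 0 had an unadjusted p under 0.05. Leaving out the lymphoid cells again ended all of these calls, with Rab27b at 0.19, Vwf at 0.18 and Cavin2 at 0.13. The Rab27b share within lymphoid cells moved the same way as its difference, at 1.20% and 0.681% in Ezh2 KO against 2.38% and 2.84% in Jarid2 KO-labelled, and its part in the difference was not tested. Each of the 3 edgeR calls was also lost on leaving out either Ezh2 KO library (FDR 0.057 to 0.096) or Jarid2 KO-labelled replicate 1 (FDR 0.17 to 0.23), and those of Vwf and Cavin2 without Jarid2 KO-labelled replicate 2 (FDR 0.16 and 0.11). In the share, 0 members were called without Ezh2 KO replicate 1 or Jarid2 KO-labelled replicate 1, and 1 without Jarid2 KO-labelled replicate 2. With no sex term, 0 members were called in summed counts and 0 in the share. Stem-like cells made up 16.7% and 18.6% of Ezh2 KO and 29.5% and 24.6% of Jarid2 KO-labelled cells (25.7% and 18.2% of Control), and megakaryocyte-like cells 0.813% and 1.11%, and 0.852% and 1.23% (1.06% and 2.88% of Control). Their part in the differences was not tested. This comparison shares the Ezh2 KO libraries with the one against Control, and the 2 are not independent.

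After transplantation 4 of 9 members were called between the knockout labels. Pf4, Treml1 and Gp9 were lower in Jarid2 KO-labelled than in Ezh2 KO libraries, and Itga2b was higher. Pf4 differed by -2.25 ± 0.53 (log2 ± SE, edgeR FDR 0.042), Treml1 by -1.39 ± 0.21 (FDR 0.010, on 39 to 126 UMIs per library), Gp9 by -0.87 ± 0.14 (FDR 0.013) and Itga2b by 0.43 ± 0.09 (FDR 0.033). Of 15758 genes tested, 12.0% were called, 7.67% lower and 4.37% higher. The median over the 9 was -0.87, against 0.0033 over all genes. The 5 not called were Gp1bb (-2.07 ± 0.58, FDR 0.070), Cavin2 (-0.94, FDR 0.19), Vwf (-0.62, FDR 0.17), Rab27b (-0.34, FDR 0.20) and Cd9 (0.34, FDR 0.18).

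The share of Pf4-positive cells was lower in Jarid2 KO-labelled than in Ezh2 KO libraries. It was 3.88% of Control cells, 6.69% and 5.96% of Ezh2 KO cells, and 3.14% and 1.67% of Jarid2 KO-labelled cells. A positive cell held 3.21 UMIs in Control, 2.89 and 2.53 in Ezh2 KO, then 1.83 and 1.22 in Jarid2 KO-labelled. The share and the count per positive cell were both lowest in the 2 Jarid2 KO-labelled libraries. Positive cells with at least 3 Pf4 UMIs were 11.7% in Control, 18.3% and 15.3% in Ezh2 KO, then 7.30% and 2.56% in Jarid2 KO-labelled. These rest on few cells. Thinned Pf4 UMIs numbered 466 in Control, 1136 and 828 in Ezh2 KO, then 251 and 95 in Jarid2 KO-labelled. In each transplant library 61.7% to 77.0% of them lay in the richest 1% of cells. Between the knockout labels 8.30% of genes were called in the share, 5.20% lower and 3.10% higher. With a spread drawn partly from other genes, the Pf4 share differed by -1.52 ± 0.21 between the knockout labels (log2 odds, limma FDR 1e-05). It was called on leaving out each of the 5 libraries in turn, at -1.05 to -1.98. The level differed by -0.86 ± 0.22 and did not pass limma's test across genes (FDR 0.50). In that test 0 of 11569 genes and 0 of 5 members were called, and 2 members had an unadjusted p under 0.05 (919 genes). Without thinning, the level passed at -1.24 (FDR 1.3e-07), a scale on which the unequal depth of the libraries also enters.

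Gp9 was positive in 3.37% of Control cells, 4.39% and 5.34% of Ezh2 KO cells, and 3.00% and 2.26% of Jarid2 KO-labelled cells (knockout labels compared, log2 odds -0.92 ± 0.18, limma FDR 0.00083). The Gp9 share in lymphoid cells moved the same way, at 1.48%, then 3.50% and 4.42%, then 2.10% and 1.66%. Pf4 in lymphoid cells was at 0.554%, then 2.58% and 1.39%, then 0.815% and 0.221%. Whether free RNA accounts for any of the difference was not tested. Itga2b ran in the other order, positive in 11.3% of Control, 6.62% and 6.95% of Ezh2 KO, and 9.08% and 10.1% of Jarid2 KO-labelled cells (0.54 ± 0.15 between the knockout labels, limma FDR 0.026). The Itga2b call in the share was lost without Ezh2 KO replicate 1 (FDR 0.51), Ezh2 KO replicate 2 (FDR 0.30) or Jarid2 KO-labelled replicate 2 (FDR 0.065), and that of Gp9 without Ezh2 KO replicate 2 (FDR 0.066). The Itga2b share in lymphoid cells was 1.48% to 2.21% in all 5 libraries.

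The transplant libraries differed in quality and make-up between these groups. Barcodes over the mitochondrial limit were 43.4% in Control, 25.7% and 27.4% in Ezh2 KO, then 36.6% and 37.4% in Jarid2 KO-labelled. Mast-like cells, in which Itga2b was most often positive, made up 6.66% of Control, 3.82% and 4.12% of Ezh2 KO, then 6.87% and 7.19% of Jarid2 KO-labelled cells. Stem-like cells, in which Pf4 was most often positive, made up 19.1%, then 25.9% and 28.7%, then 19.2% and 20.2%. Myeloid-like cells made up 22.6%, then 11.5% and 10.4%, then 27.4% and 25.3%. In the granule set Pf4 was positive in 3.41% of Control, 3.55% and 2.94% of Ezh2 KO, then 2.88% and 1.37% of Jarid2 KO-labelled cells. Gp9 was positive there in 2.93%, then 2.79% and 3.53%, then 2.66% and 2.01%. Itga2b was positive there in 9.53%, then 5.72% and 6.60%, then 7.79% and 8.93%. The part of these shares in the member differences was not tested. Cluster 3, led by lymphoid genes, made up 4.52% of Control, 18.9% and 16.2% of Ezh2 KO, and 5.88% and 6.56% of Jarid2 KO-labelled cells. Cells with at least 3 lymphoid UMIs, a set that overlapped the granule set, made up 12.6% of the Control, 45.4% and 41.6% of Ezh2 KO, and 17.4% and 18.4% of Jarid2 KO-labelled cells. Without them, Pf4 (-2.71, edgeR FDR 0.026), Treml1 (-1.76, FDR 0.0042), Gp9 (-0.90, FDR 0.012), Gp1bb (-2.43, FDR 0.039) and Rab27b (-0.78, FDR 0.032) were lower in Jarid2 KO-labelled than in Ezh2 KO libraries (8.39% of genes called), and the Itga2b difference was 0.08 (FDR 0.72). Cells with Y-linked and no Xist transcripts made up 85.8% to 90.3% of the male and 0.166% to 0.869% of the female baseline libraries. In the transplant libraries, whose labels give no sex, they made up 18.5% of the Control, 73.6% and 68.7% of Ezh2 KO, and 27.5% and 32.2% of Jarid2 KO-labelled cells. These shares lie between those of the 2 sexes, and whether animals were pooled was not tested. Among these male cells alone Treml1 (-1.36, FDR 0.039) and Gp9 (-0.84, FDR 0.046) were called by edgeR (8.63% of genes), and Pf4 (-1.36, FDR 0.35) and Itga2b (0.43, FDR 0.078) were not. The Pf4 call was also lost in DESeq2 (adjusted p 0.066), which called Gp1bb in its place (adjusted p 0.046, 11.8% of genes called), and on leaving out Ezh2 KO replicate 1 (-1.95, FDR 0.074). Without Jarid2 KO-labelled replicate 1 or 2 it was -3.44 and -1.60. The Itga2b call was lost without Ezh2 KO replicate 1 (FDR 0.097), Ezh2 KO replicate 2 (FDR 0.19) or Jarid2 KO-labelled replicate 1 (FDR 0.073), and without TMM scaling (FDR 0.065).

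Against the single transplant Control library, edgeR called Itga2b lower in Ezh2 KO (-0.76 ± 0.11, FDR 0.018, 4.84% of genes called and 1.44% lower), and no other member. Limma called the share of Itga2b lower as well (-0.81 ± 0.19, FDR 0.0077, 5.11% of genes called and 1.55% lower), a call lost without either Ezh2 KO library. Without lymphoid cells the share call was lost for Itga2b (-0.35, FDR 0.73) and gained for Pf4, which was higher in Ezh2 KO (1.21, limma FDR 0.017, 2.20% of genes called). In summed counts the Itga2b difference without them was -0.36 (FDR 0.27), with 29.1 CPM in Control and 24.8 and 22.6 in Ezh2 KO, and without Ezh2 KO replicate 2 it was -0.70 (FDR 0.081). The summed-count call was also lost with the strict cell filter and in male cells alone. For Jarid2 KO-labelled against Control, edgeR called 0 of 9 (0.336% of genes), though all 9 estimates were negative with a median of -0.91. In that comparison 6 members had an unadjusted p under 0.05 (1314 of 15758 genes), and DESeq2 called 0 (1.24% of genes). Pf4 was at -1.98 ± 0.60 there (edgeR FDR 0.38). Limma called 0 of 5 members in the share (0.721% of genes called), with Pf4 at -0.78 (FDR 0.32) and 1 member under an unadjusted p of 0.05 (639 of 11098 genes). Both comparisons assume that the lone Control library varies like the other groups.

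**Figure D4:**
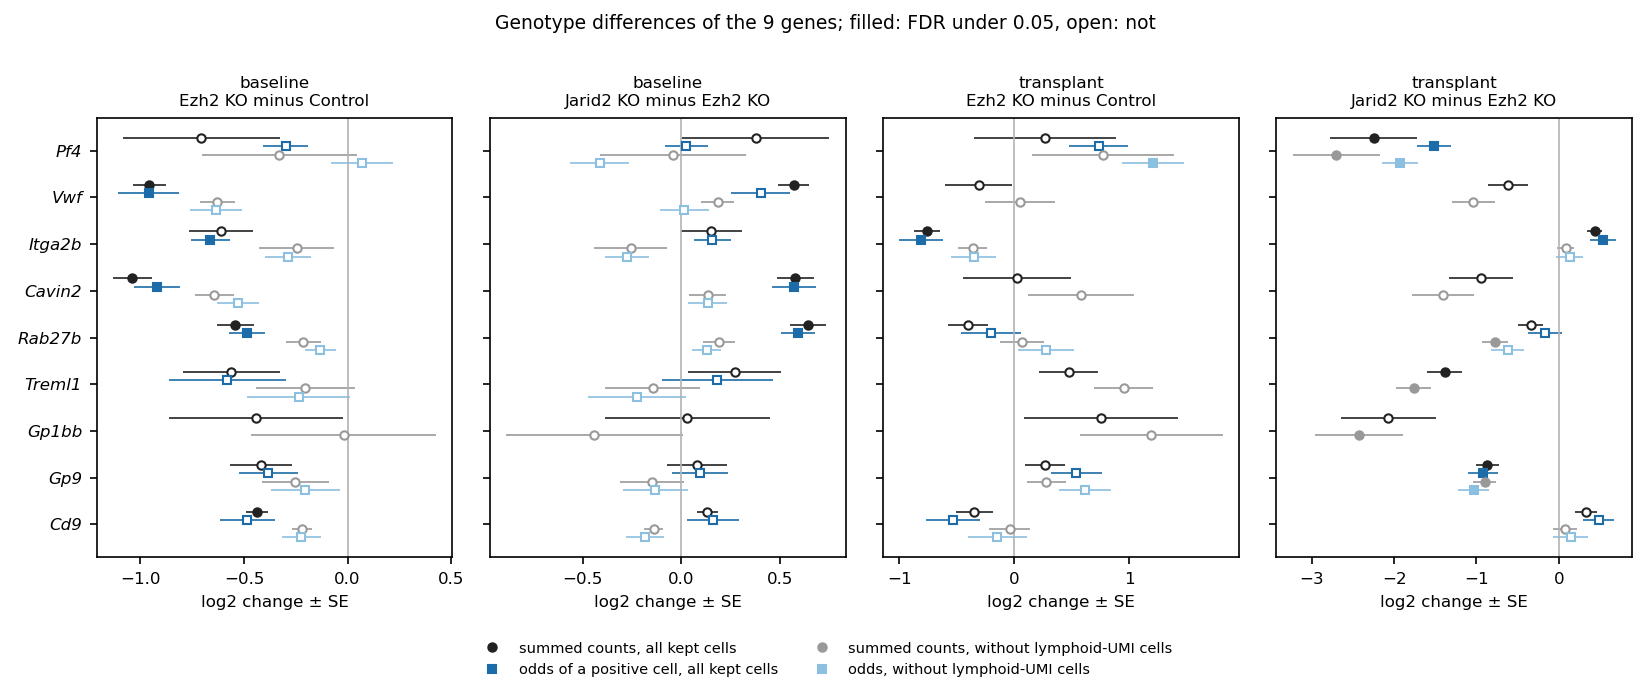
Log2 change ± SE (horizontal axes) of the 9 genes in summed counts and in the log2 odds of a positive cell for 4 comparisons, with all kept cells and without lymphoid cells; filled symbols have an FDR under 0.05. The baseline Ezh2 KO changes in Vwf and Cavin2 move from -0.96 and -1.04 to -0.63 and -0.64 without lymphoid cells, and the transplant Pf4 difference between the knockout labels is -2.25 with all kept cells and -2.71 without lymphoid cells.

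Whether a genotype difference itself differed between the experiments was tested in 1 fit over all 11 libraries. No member passed edgeR in any of the 3 comparisons (0.349%, 0% and 2.46% of 18938 genes called for Ezh2 KO against Control, Jarid2 KO-labelled against Control, and Jarid2 KO-labelled against Ezh2 KO). For the last, 7 of 9 members had an unadjusted p under 0.05 (3033 of 18938 genes), among them Gp9 (-0.96 ± 0.27, FDR 0.12), Rab27b (-0.98 ± 0.27, FDR 0.12) and Pf4 (-2.70 ± 0.81, FDR 0.14). With DESeq2 3 members passed (Cavin2, Gp9 and Rab27b, 4.77% of genes called), and 3 passed once the sex of the baseline libraries was a term (Rab27b, Treml1 and Vwf, 4.64% of genes called). The other 2 comparisons had 1 member each under an unadjusted p of 0.05, Gp9 and Rab27b (1720 and 965 of 18938 genes).

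Fits within cell classes asked whether a member differed among cells of 1 kind, in classes with at least 50 cells in every library. Over both experiments, 27 of 342 such tests of a member passed edgeR's threshold, while 0.00893% to 8.82% of all genes were called, depending on the class and comparison. In baseline stem-like cells Cavin2 (-0.68 ± 0.09, FDR 0.011) and Vwf (-0.60 ± 0.10, FDR 0.034) were lower in Ezh2 KO than in Control (0.566% of genes called). Of this class, cluster 4 held 48.5% and cluster 2 46.9% in Ezh2 KO replicate 1, and cluster 2 held 51.3% to 61.4% in the other 5 libraries. The same 2 genes were lower in cycling-like cells, Cavin2 by -1.04 (FDR 0.027) and Vwf by -1.19 (FDR 0.048), with 1.67% of genes called. Vwf was also lower in Jarid2 KO-labelled than in Control stem-like cells (-0.62, FDR 0.031, 0.397% of genes called). In the megakaryocyte-like class, with 62 to 226 cells a library, edgeR called 0 of 9 members in Ezh2 KO against Control, Jarid2 KO-labelled against Control and between the knockout labels (0.0806%, 0.0605% and 0.171% of genes called), with 1, 4 and 3 under an unadjusted p of 0.05. The smallest were those of Cavin2 in Ezh2 KO (-0.36, FDR 0.64) and Vwf in Jarid2 KO-labelled (0.40, FDR 0.63). How many of all genes had an unadjusted p under 0.05 in this class is not given here, so these counts set no member apart.

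Members were also called in 2 smaller classes. In baseline erythroid-like cells, where the fewest cells in a library were 55, Itga2b was lower in Jarid2 KO-labelled than in Control (-2.52 ± 0.37, FDR 0.014) and than in Ezh2 KO (-2.76 ± 0.37, FDR 0.0037), and Cd9 was lower in both comparisons (-1.27 and -1.24, FDR 0.045 and 0.031). Rab27b was lower there than in Ezh2 KO as well (-1.40, FDR 0.026). In innate-lymphoid-like cells Rab27b was higher in Jarid2 KO-labelled than in Control (0.93, FDR 0.023) and than in Ezh2 KO (1.37, FDR 0.00015), and Cd9 was lower (-1.18 and -0.98). Cluster 20 held 87.8% to 90.4% of this class in the Jarid2 KO-labelled libraries and 43.7% to 68.0% in the others, and cluster 21 the rest. Between 0.767% and 5.24% of genes were called in these 4 fits.

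In the transplant libraries 10 of 48 within-class tests of a member between the knockout labels were called lower and 1 higher, where up to 7.95% of all genes were called in a class. Over all kept cells 7.67% of genes were lower and 4.37% higher between these labels. Pf4 was lower in Jarid2 KO-labelled than in Ezh2 KO in cycling-like cells (-2.93 ± 0.33, FDR 0.0026, 4.61% of genes called) and in stem-like cells (-1.89 ± 0.26, FDR 0.0080, 4.15%). Cavin2 (-1.96, FDR 0.010) and Gp1bb (-3.25, FDR 0.028) were lower in cycling-like cells. Gp9 was lower in 5 classes, by -0.91 to -1.69, the largest in cluster 3, whose leading genes include Cmah, Arpp21 and Dntt and are lymphoid. Itga2b was higher in stem-like cells (0.57, FDR 0.042). In Ezh2 KO against Control, Itga2b (-0.93, FDR 0.022) and Cd9 (-0.68, FDR 0.049) were lower in stem-like cells (2.15% of genes called). For Jarid2 KO-labelled against Control, 0 of 48 tests passed edgeR, where 0.00893% to 0.189% of genes were called in a class. Of the 48, 16 were under an unadjusted p of 0.05. How many of all genes fell under that p within a class is not given here, so that count sets no member apart.

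Among 58 other megakaryocyte genes, grouped as transcription factors, receptors, granule genes and signalling or cytoskeletal genes, 7 of 57 tested were lower and 0 higher in baseline Ezh2 KO against Control, with a median of -0.21, where 0.655% of all genes were lower. Lymphoid cells made up 25.5% and 17.8% of Control and 49.3% and 34.6% of Ezh2 KO cells. Without them edgeR called 0 of 56 (0.150% of genes called), with 18 under an unadjusted p of 0.05 and a median of -0.07. How many of all genes fell under that p without lymphoid cells, here and below, is not given, so such counts set no gene apart. Differences between the groups of genes were not tested. By group the 7 lower genes were 1 of 13 transcription factors, 2 of 15 receptors, 4 of 14 granule genes and 0 of 15 signalling or cytoskeletal genes. Named by the smallest p, they included Selp, the granule membrane receptor P-selectin (-0.58, edgeR FDR 0.028), Unc13d, a factor of granule release (-0.36, FDR 0.033), and Itgb3, the integrin beta3 partner of Itga2b (-0.65, FDR 0.035). Against Control, edgeR called 0 of 57 in Jarid2 KO-labelled libraries, with 14 under an unadjusted p of 0.05 (2095 of 18177 genes). DESeq2 called 2 (1.38% of genes). Between the knockout labels, 12 of 57 were higher in Jarid2 KO-labelled and 0 lower (1.49% of all genes higher), with Itgb3 at 1.06 (FDR 0.014), and without lymphoid cells 0 of 56 were called by edgeR (0.341% of genes), with 15 under an unadjusted p of 0.05. Itgb3 was at 7.57 and 10.2 CPM in Control, 4.44 and 6.63 in Ezh2 KO, then 10.3 and 12.9 in Jarid2 KO-labelled.

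In the transplant libraries 6 of 55 of these genes were higher and 2 lower in Ezh2 KO against Control, where 4.84% of all genes were called and 1.44% lower. Without lymphoid cells 3 were higher and 1 lower (1.71% and 0.714% of genes). Selp was at 36.0 CPM in Control, 12.2 and 15.5 CPM in Ezh2 KO, then 29.6 and 30.7 CPM in Jarid2 KO-labelled (Ezh2 KO against Control -1.47, edgeR FDR 0.0036). Gfi1b, a transcription factor of the erythroid and megakaryocyte lineages, rose by 0.83 (FDR 0.016) in Ezh2 KO, and Tbxa2r, the thromboxane receptor, by 0.73 (FDR 0.020). Between the knockout labels 3 of 55 were higher and 7 lower in Jarid2 KO-labelled, where 4.37% of all genes were higher and 7.67% lower. Without lymphoid cells 2 were higher and 9 lower (2.91% and 5.48% of genes). Selp was higher (1.16, FDR 0.0024), and among the lower were Tbxa2r at -0.86 (FDR 0.0029) and Serpine2 at -0.67 (FDR 0.0060). Against Control, edgeR called 0 of 55 in Jarid2 KO-labelled libraries, with 8 under an unadjusted p of 0.05 (1314 of 15758 genes). DESeq2 called 1 (1.24% of genes).

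The genes most like the members from cell to cell were found by Pearson's correlation with the sum of the 9 genes' log values, averaged over libraries. This is a description over cells that share libraries and depth. At baseline, among the 5 highest of 13061 genes were Apoe (mean r 0.418), Med12l (0.381), Tuba8 (0.378) and Mfsd2b (0.358). In the transplant libraries those among the 5 highest of 11879 included Apoe (0.431), Gata2 (0.351), Slc18a2 (0.322) and Zfpm1 (0.309). Apoe was in both lists, and Gata2 and Zfpm1 encode a GATA factor and a GATA cofactor.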

How the data were processed

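The deposited files used here are Cell Ranger matrices of raw UMI counts per gene and cell barcode from 10x Chromium 3' v3.1 libraries, made with Cell Ranger 7.2.0 (baseline) and 6.1.2 (transplant), per the file headers. The submitters' processing notes name Cell Ranger 3.1.0, Seurat 3.0, Partek and the build mm10, and the treatment of intronic reads and strand is not stated in the labels. The 6 H3K27me3 libraries were not analysed here.

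Barcodes with at least 1000 UMIs, 500 genes and at most 10% mitochondrial counts were kept. Because the automatic doublet threshold of Scrublet marked 0 to 130 barcodes per library, the highest scores were removed at 0.8% per 1000 barcodes. Total counts over kept cells were 83921210 to 126527222 UMIs per baseline library and 67629053 to 111514122 per transplant library.

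Counts were summed per library (CPM is per 1000000 UMIs of kept cells) and tested with edgeR 4.0.16 (quasi-likelihood, TMM, filterByExpr, a sex term at baseline). The log2 odds of the positive share (genes with a mean share of at least 1%) and the log2 level in positive cells (at least 20 positive cells in every library) were tested with limma 3.58.1, with cells thinned to 5000 UMIs. Calls are at a Benjamini-Hochberg FDR under 0.05 over all genes tested, two-sided. DESeq2 1.42.0 was an alternative. Cells were clustered with scanpy 1.11.5 (Leiden) on Control cells, and others took the majority class of their 15 nearest Control cells. Scripts were tested on simulated data for Ezh2 KO against Control with 200 genes changed 2-fold. At baseline 99.5% were recovered from summed counts (17967 genes), 100% from shares and 79.5% from levels (4000 genes), and for the transplant design 94% (15415 genes), 100% and 65.5% (4000 genes). Simulated shares and levels had the same small spread between libraries for every gene and equal cell numbers. In summed counts only the better-counted genes were changed, and no sex effect was simulated. Recovery of changes in the members cannot be read from these values.

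The members and gene lists were chosen with earlier results of these data known. Named were the 9 members, Ezh2 and Jarid2, up to 4 other megakaryocyte genes per comparison with the smallest p among those called, the 5 genes most like the members per experiment, and genes that lead a cluster. Some genes that this rule names are not reported here.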

Additional observations from a re-analysis of the deposited data

Results flagged for a closer look

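The transplant libraries, for which no antibody staining is described, still held antibody counts over all barcodes: 225 in the Control, 269 and 366 in Ezh2 KO replicates 1 and 2, and 272 and 313 in Jarid2 KO-labelled replicates 1 and 2. These transplant counts were used in no comparison above, and their origin was not tested. The stained baseline libraries held 14330271 to 25234137.

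The change in Ezh2 itself differed between the experiments. In the fit over all 11 libraries, the difference between Ezh2 KO and Control in Ezh2 counts was lower after transplantation than at baseline by a log2 value of -1.86 (edgeR FDR 0.0027). The difference between Jarid2 KO-labelled and Ezh2 KO was higher by 1.79 (FDR 0.00069).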

How the results depend on the processing

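The number of members called depended on which cells, libraries and terms entered a fit. No value in the summed-count, share, level or between-experiment fits reversed its direction while called. Directions under alternatives were not compared for the within-class and antibody results. In summed counts at baseline, the 4 calls in Ezh2 KO against Control became 2 with the libraries of the 2 groups only, 0 with no sex term and 0 without lymphoid cells, and the 3 calls in Jarid2 KO-labelled against Ezh2 KO became 0 with no sex term and 0 without lymphoid cells. In Jarid2 KO-labelled against Control, DESeq2 called 2 in place of 0. In the share of positive cells at baseline, the 4 calls in Ezh2 KO against Control became 2 with at least 2 UMIs per positive cell, 2 with a mean share of at least 5%, 0 without lymphoid cells and 0 with no sex term. The 2 calls in Jarid2 KO-labelled against Ezh2 KO became 0, 1, 0 and 0. In transplant summed counts, the single Ezh2 KO call became 0 with the strict cell filter, 0 without lymphoid cells and 0 in male cells. In Jarid2 KO-labelled against Control, 1 member was called without TMM scaling. The 4 calls between the knockout labels became 0 with genes of at least 10 CPM, a filter that leaves out Treml1 and Gp9, and 2 in male cells. In transplant shares, the single Ezh2 KO call (Itga2b) became 0 with no thinning and was replaced by 1 call of Pf4 without lymphoid cells, and the 3 calls between the knockout labels became 1 with no thinning, 1 with at least 2 UMIs and 1 with a mean share of at least 5%. In the level per positive cell after transplantation, no thinning gave 1 call in Jarid2 KO-labelled against Control and 3 between the knockout labels, where thinning gave 0. Unequal depth enters the unthinned levels, and the share of all genes called there is not given here, so these counts set no member apart. In the test of the difference between experiments, DESeq2 and a sex term for the baseline libraries each gave 3 calls between the knockout labels in place of 0. Apart from the construction of each filter, the cause was not tested. Where no share of all genes called is given for an alternative, its count sets no member apart.

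Leaving out 1 library at a time gave 1 to 4, 0 to 0 and 0 to 3 calls in baseline summed counts (Ezh2 KO against Control, Jarid2 KO-labelled against Control, and between the knockout labels), 0 to 5, 0 to 2 and 0 to 3 in baseline shares, 0 to 1, 0 to 1 and 3 to 6 in transplant summed counts, 0 to 2, 0 to 1 and 1 to 4 in transplant shares, 0 to 0 in every level comparison, and 0 to 0, 0 to 0 and 0 to 2 in the test between experiments. The main fits did not pair the transplant knockout libraries by replicate number. Deviations of same-numbered libraries from their group means correlated at 0.0239 over 8093 genes. With 2 libraries in each group, this value cannot settle whether they were paired. With a replicate block the calls between the knockout labels were 4 in summed counts, 4 in shares and 0 in levels. The share of all genes called is not given here for this block or for the fits that left out 1 library. These counts thus set no member apart. Gp1bb had 7 to 228 UMIs per library, which limits the precision of its values, and how small a change these designs can call was not tested.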
